A study of Homo sapiens with 4 samples.

Results

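The miR-216 and miR-217 cluster comprises 3 miRNA hairpins, MIR216B, MIR216A and MIR217, inside the long non-coding RNA gene MIR217HG on human chromosome 2. Of the 2656 mature miRNAs in the deposited count table, 4 were taken as its members by name: hsa-miR-216a-5p, hsa-miR-216a-3p, hsa-miR-216b-5p and hsa-miR-217-5p (the human prefix is left out below). They were chosen with their counts in CAG and PGK cells already known, so the difference between the groups is given as a description of these libraries and supports nothing further. The remaining 2 mature forms of the same hairpins, miR-216b-3p and miR-217-3p, are described beside them.

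Small RNA was sequenced from HEK293T, a cell line of human embryonic kidney origin that expresses SV40 large T antigen. The CAG group (2 libraries) was a monoclonal landing pad line or lines with the CAG promoter, which joins an enhancer of cytomegalovirus to promoter sequence of chicken beta-actin. The PGK group (2 libraries) was a monoclonal landing pad line or lines with the PGK promoter of the phosphoglycerate kinase gene. A landing pad is a site placed in the genome so that transgenes can be inserted there, and cells of both groups carried one. The purpose of the series was to find miRNAs at different levels in lines with the one or the other promoter. The sources used here do not state the number of clones or whether replicates were separate cultures, so promoter and clone cannot be told apart, and any spread or p-value concerns these 4 samples, whose differences may be technical.

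A miRNA hairpin is cut into a duplex whose 5p and 3p strands can each be loaded into an Argonaute protein. The loaded strand pairs with target mRNAs mainly through its seed, bases 2 to 8 from the 5′ end, and usually 1 strand is retained while the other is degraded. miR-216a, miR-216b and miR-217 are best known from the pancreas, where they are markers of the digestive enzyme-secreting acinar cells. Outside the pancreas, miR-216a and miR-217 have been studied in mouse kidney mesangial cells, and miR-217 in human endothelial cells, where it targets SIRT1.

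The mature sequences show which targets the members could share, since a miRNA is grouped by its seed. They are from RefSeq (GRCh38.p14), written 5′ to 3′ with the seed in capitals, and all 4 members were matched by name. The sequence of miR-128-3p, an abundant brain-enriched miRNA that is not a member, is shown for its seed.
miR-216a-5p: uAAUCUCAgcuggcaacuguga
miR-216b-5p: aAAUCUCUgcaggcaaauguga
miR-217-5p: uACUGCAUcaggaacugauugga
miR-216a-3p: uCACAGUGgucucugggauuau
miR-128-3p: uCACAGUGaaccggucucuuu

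The 5p strands of miR-216a and miR-216b were identical at 18 of 22 bases. Their differences, counted from 1 at the 5′ end and written from miR-216a-5p to miR-216b-5p, were U1A, A8U, U11A and C17A, of which only A8U lies in the seed. They therefore share bases 2 to 7 and fall into different 7-base seed families. miR-217-5p had a seed of its own among the members, shared among RefSeq's human entries only with miR-6807-3p, which had 0 reads in every library. miR-216a-3p had the same seed as miR-128-3p and miR-3681-3p, and its first 8 bases were those of miR-128-3p. Over the 21 bases of miR-128-3p, compared without gaps, 11 were identical. In ungapped comparison with 2369 other human mature sequences, shifted by up to 3 bases, the closest to miR-216b-5p was miR-216a-5p, and the closest to miR-217-5p (miR-3065-3p) shared 15 of 23 bases. How the authors assigned reads that fit several entries is unknown from the sources used here, so the division of reads between miR-216a-5p and miR-216b-5p is uncertain to that extent.

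In GENCODE release 29 (GRCh38), MIR217HG is annotated as a lincRNA of 3 exons on the minus strand at chr2:55963191-56047326. All 3 hairpins lie in its second intron, counted from the 5′ end. In the order of transcription they are MIR216B at chr2:56000714-56000795, MIR216A at chr2:55988950-55989059 and MIR217 at chr2:55982967-55983076. MIR216B and MIR216A are 11654 bases apart, MIR216A and MIR217 are 5873 bases apart, and the whole cluster spans 17829 bases. The deposited tables hold no coordinates, and positions were looked up by hairpin name in this annotation, whose build may differ from the authors'. The nearest other annotated miRNA hairpin, MIR3682, lies 2133762 bases from MIR217 on the side of lower coordinates. Its more abundant strand, miR-3682-3p, had 13 and 11 reads in CAG replicates 1 and 2 and 8 and 7 reads in PGK replicates 1 and 2. These are raw counts and do not compare levels, since the library totals were unequal (13780279 in CAG replicate 1 and 2845945 in CAG replicate 2). The next hairpin beyond MIR3682 on that side, MIR4431, and the nearest on the other side, MIR4432, had 0 reads in every library.

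Total counts over all miRNAs were 13780279 and 2845945 in CAG replicates 1 and 2, and 7927615 and 7331437 in PGK replicates 1 and 2. Levels are given as CPM (read counts relative to the library total, adjusted by TMM factors), on which 1 read was worth 0.0777 CPM in the deepest library (CAG replicate 1) and 0.324 CPM in the shallowest (CAG replicate 2). Where a count was 0, the level may reach 0.233 CPM in the deepest and 0.972 CPM in that shallowest library (3 counts). No miRNA defines HEK293T. Of 7 miRNAs listed as markers of liver, blood, neurons or muscle, 3 and 5 were at 0 in CAG replicates 1 and 2, and 2 and 3 in PGK replicates 1 and 2, with a summed level of 0.972 to 2.49 CPM in the CAG libraries and 1.75 to 3.63 CPM in the PGK libraries. Muscle miR-1-3p and neural miR-9-5p, outside the list, were more abundant and lower in CAG cells. They were chosen after their values were seen and do not stand for all muscle or neural miRNAs. Muscle miR-1-3p stood at 16.5 and 15.6 CPM in CAG replicates 1 and 2, against 103.7 and 93.98 CPM in PGK replicates 1 and 2. Neural miR-9-5p stood at 2060 and 1767 CPM in CAG replicates 1 and 2, against 4088 and 3891 CPM in PGK replicates 1 and 2. Their part in the cluster's values was not tested.

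The cluster was detected at a low level in every library, and its reads came mainly from MIR216B. The 4 members together had 198 and 44 reads in CAG replicates 1 and 2, and 30 and 39 reads in PGK replicates 1 and 2. Their summed level was 15.4 and 14.3 CPM in CAG replicates 1 and 2, and 3.75 and 5.44 CPM in PGK replicates 1 and 2. The CAG libraries were all above the PGK libraries and the groups did not overlap. The pooled ratio of CAG to PGK was 3.33 (95% exact interval 2.54 to 4.42). It was lowest without PGK replicate 1, at 2.79, and highest without PGK replicate 2, at 4.04. All intervals here describe counting error alone and leave out variation between libraries. PCR copies were not told apart by molecular identifiers, so the intervals may be too narrow even for counting error. In such bulk samples, more RNA per cell and more cells that express the cluster cannot be told apart.

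miR-216b-5p, the strand of MIR216B that is known as its active form, was the most abundant member. It had 121 and 30 reads in CAG replicates 1 and 2, and 15 and 25 reads in PGK replicates 1 and 2. This corresponds to 9.40 and 9.72 CPM in CAG replicates 1 and 2, and 1.88 and 3.49 CPM in PGK replicates 1 and 2. The CAG libraries lay close together and above both PGK libraries, of which replicate 2 was the higher. The mean level was 9.56 ± 0.231 CPM in CAG cells and 2.68 ± 1.14 CPM in PGK cells (SD, n = 2 each). Its rank among all miRNAs of a library was 444 and 440 in CAG replicates 1 and 2, and 671 and 576 in PGK replicates 1 and 2, where 1180 to 1404 miRNAs had a read. The fitted log2 fold change, CAG minus PGK, was 1.84 (SE 0.36), or 3.57-fold, and the pooled count ratio was 3.59 (95% exact interval 2.52 to 5.22).

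miR-217-5p was the second most abundant member. It had 53 and 12 reads in CAG replicates 1 and 2, and 12 and 7 reads in PGK replicates 1 and 2. These were levels of 4.12 and 3.89 CPM in CAG replicates 1 and 2, and 1.502 and 0.976 CPM in PGK replicates 1 and 2. Both CAG libraries stood above both PGK libraries, and here PGK replicate 1 was the higher of its pair. The means were 4.003 ± 0.160 CPM in CAG cells and 1.24 ± 0.372 CPM in PGK cells (SD, n = 2 each). The fitted log2 fold change was 1.68 (SE 0.44), or 3.21-fold, and the pooled ratio was 3.25 (95% exact interval 1.92 to 5.74).

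The 2 strands of MIR216A were scarcer. miR-216a-3p, the strand with the miR-128 seed, had 23 and 1 reads in CAG replicates 1 and 2, and 2 and 7 reads in PGK replicates 1 and 2. Its level was 1.79 and 0.324 CPM in CAG replicates 1 and 2, and 0.250 and 0.976 CPM in PGK replicates 1 and 2. The groups overlapped, since CAG replicate 2 lay below PGK replicate 2. Counting intervals of the CAG replicates overlapped as well, running over 1.13 to 2.68 CPM in replicate 1 and 0.0082 to 1.81 CPM in replicate 2. The pooled ratio of CAG to PGK was 2.53 (95% exact interval 1.14 to 6.19), and it turned to 0.546 (0.0125 to 3.94) without CAG replicate 1 and was 1.54 and 6.01 without PGK replicates 1 and 2, so no direction can be given. miR-216a-5p, the strand usually described in pancreas, had 1 read in each CAG library, and 1 and 0 reads in PGK replicates 1 and 2. No difference was detectable at this depth, with a pooled ratio of 1.90 (95% exact interval 0.0989 to 112.1).

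**Figure D1:**
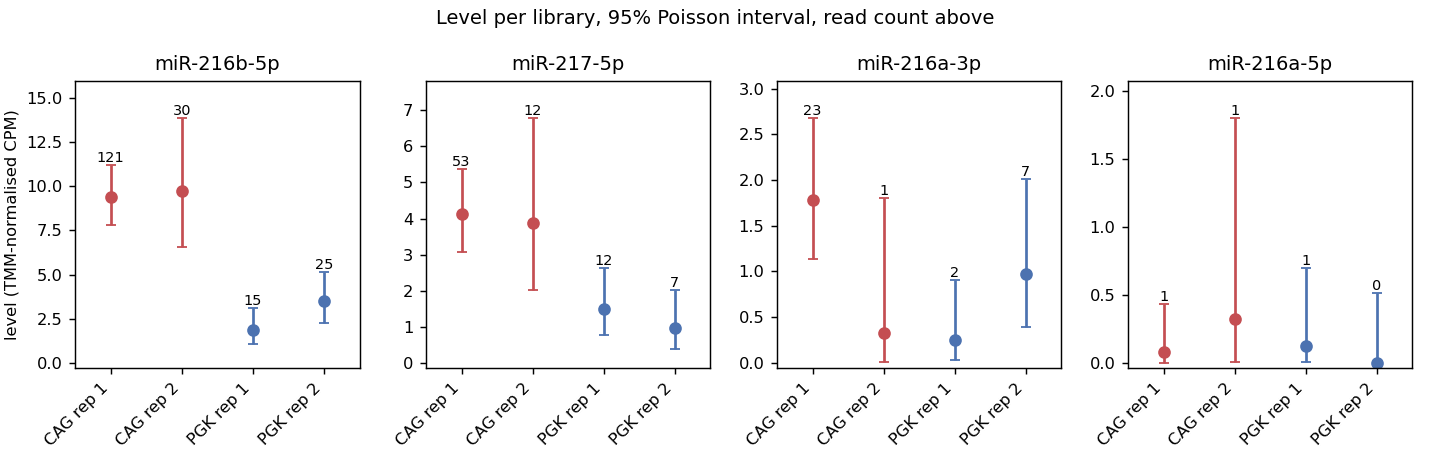
Level of each member (vertical axis, TMM-normalised CPM, a scale of its own in each panel) in the 2 CAG and 2 PGK libraries (horizontal axis), with 95% Poisson intervals and the read count above each. miR-216b-5p and miR-217-5p were higher in both CAG libraries than in either PGK library, miR-216a-3p overlapped between the groups, and miR-216a-5p had at most 1 read in a library.

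In the test over the whole table, 2 of the 4 members passed the low-count filter, and both of these were called higher in CAG cells (edgeR quasi-likelihood test, adjusted p under 0.05 over 773 tested miRNAs). Of all tested miRNAs, 8.15% were called higher and 14.2% were called in either direction, and the median log2 fold change was −0.0042. The groups did not overlap, with CAG above, for both tested members and for 29.8% of all tested miRNAs. The members were chosen with these values known, so nothing is read from either count. The filter asked for about 1.31 CPM, before TMM scaling, in at least 2 libraries. miR-216b-5p exceeded this in all 4 libraries, but miR-217-5p passed through the group in which it was high, with both CAG libraries and only PGK replicate 1 above it. miR-216a-3p exceeded it in CAG replicate 1 alone, and miR-216a-5p in no library. Neither tested member kept its call without PGK replicate 1 (log2 fold changes of 1.43 for miR-216b-5p and 2.02 for miR-217-5p) or without PGK replicate 2 (2.32 and 1.41). miR-217-5p also lost it without CAG replicate 1 (1.63), with DESeq2 (1.67), with the libraries thinned to the shallowest total (1.29) and with the replicate number as a block (1.63, SE 0.46). With 2 libraries against 2, an exact permutation test of a single value cannot give a two-sided p below 0.333.

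**Figure D2:**
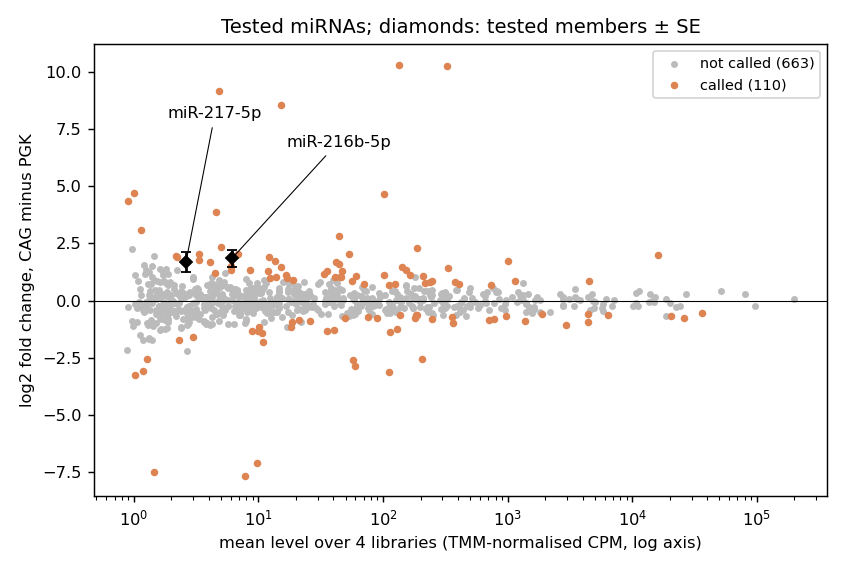
Log2 fold change, CAG minus PGK (vertical axis), against the mean level over the 4 libraries (horizontal axis, TMM-normalised CPM, log axis) for the 773 tested miRNAs; orange points are the 110 called and diamonds with SE bars are the tested members. miR-216b-5p (1.84) and miR-217-5p (1.68) lie at the low-abundance end, above 0.

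The make-up of the cluster was compared within each library, where scaling plays no part. miR-216b-5p gave 61.1% of the members' reads in CAG replicate 1 (95% exact interval 53.9 to 67.9), 68.2% in CAG replicate 2 (52.4 to 81.4), 50.0% in PGK replicate 1 (31.3 to 68.7) and 64.1% in PGK replicate 2 (47.2 to 78.8). miR-217-5p gave 26.8% and 27.3% in CAG replicates 1 and 2, and 40.0% and 17.9% in PGK replicates 1 and 2. The CAG shares of miR-217-5p therefore fell between those of the PGK libraries. The ratio of miR-216b-5p to miR-217-5p reads was 2.28 and 2.50 in CAG replicates 1 and 2, and 1.25 and 3.57 in PGK replicates 1 and 2. Pooled over libraries it was 2.32 in CAG and 2.11 in PGK cells, and no shift in their proportions was detectable at this depth. miR-216a-3p gave 11.6% and 2.27% in CAG replicates 1 and 2, and 6.67% and 17.9% in PGK replicates 1 and 2, a spread as wide within a group as between groups. Adapter ligation differs between small RNAs, so these proportions of different miRNAs are less certain than the level of 1 miRNA across libraries.

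The hairpins differed in which strand was read. MIR216B and MIR217 gave almost only 5p reads, whereas MIR216A gave mostly 3p reads. Over all 4 libraries, MIR216B had 191 reads of the 5p and 4 of the 3p strand, so that 97.9% were 5p (95% exact interval 94.8 to 99.4). MIR217 had 84 reads of the 5p and 2 of the 3p strand, 97.7% (91.9 to 99.7). MIR216A had 3 reads of the 5p and 33 of the 3p strand, 8.33% (1.75 to 22.5). Adapter ligation and the unknown assignment of reads that fit several entries, both named above, limit these shares as well, and their effect was not tested.

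Within libraries, the order of the strands was the same for MIR216B and MIR217 throughout. All 4 reads of miR-216b-3p were in CAG replicate 1, where the 5p share was 96.8%, and it was 100% of 30, 15 and 25 reads in CAG replicate 2 and PGK replicates 1 and 2. miR-217-3p had 1 read in CAG replicate 1 and 1 in PGK replicate 2. The 5p share of MIR217 was 98.1% and 100% in CAG replicates 1 and 2, and 100% and 87.5% in PGK replicates 1 and 2. For MIR216A, the 5p share was 4.17% of 24 reads in CAG replicate 1 (0.105 to 21.1) and 0% of 7 reads in PGK replicate 2, where the exact interval reached 41.0%. CAG replicate 2 and PGK replicate 1 had 2 and 3 MIR216A reads, too few to order its strands. The 3p excess of MIR216A thus rests largely on CAG replicate 1. Without that library the 5p share was 16.7%, from 2 of 12 reads.

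Use of the 3p strand is common in this table. Among 448 hairpin names with both strands listed and at least 20 reads over the libraries, a minimum set after the values were seen, 48.9% had more 3p than 5p reads. A 5p share at or below that of miR-216a was found for 27.2% of these names, and one at or above that of miR-216b for 20.1%. Neither strand pattern was rare among the miRNAs of these libraries.

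**Figure D3:**
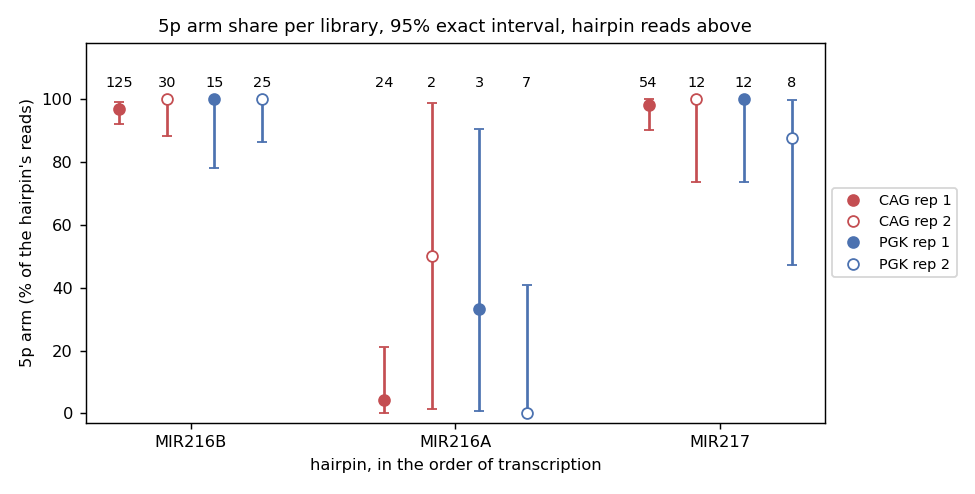
Share of each hairpin's reads that came from the 5p strand (vertical axis, percent, with 95% exact intervals) for the 3 hairpins in the order of transcription (horizontal axis), by library, with the number of reads above each point. MIR216B and MIR217 lie at 87.5% or higher in every library, and MIR216A lies at 50.0% or lower.

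The deposited family table sums miRNAs by seed and shows how much of each seed's total the members supplied. The family counts of seeds AAUCUCU and ACUGCAU equalled those of miR-216b-5p and miR-217-5p in every library. Both were called higher in CAG cells (log2 fold changes of 1.81 and 1.65, edgeR), where 5.76% of 642 tested families were, but they are the same reads and add nothing to the values of the miRNAs. Neither was called when CAG replicate 1 or either PGK library was left out, and without CAG replicate 2 only AAUCUCU was (1.79). Seed AAUCUCA held only the 3 reads of miR-216a-5p.

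For seed CACAGUG the member was a trace. This family had 192762 and 43009 reads in CAG replicates 1 and 2, and 100851 and 127578 in PGK replicates 1 and 2. miR-216a-3p supplied 0.0119% and 0.0023% of them in CAG replicates 1 and 2, and 0.0020% and 0.0055% in PGK replicates 1 and 2. All others were counted as miR-128-3p, which stood at 14968 and 13940 CPM in CAG replicates 1 and 2, and 12620 and 17788 CPM in PGK replicates 1 and 2. Its log2 fold change was −0.07 (SE 0.18), and it was not called. The highest share of miR-216a-3p in the family, in CAG replicate 1 (95% exact interval 0.0076% to 0.0179%), was 6.02-fold the lowest. The lowest was in PGK replicate 1 (0.0002% to 0.0072%). These are the extremes of the 4 libraries, and CAG replicate 2 lay below PGK replicate 2, so the groups overlapped. Whether some reads of miR-216a-3p were misassigned reads of miR-128-3p was not tested.

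Other miRNAs used as markers of the pancreas did not share 1 pattern. The list held 8 miRNAs, of which 6 were tested, 2 were called higher in CAG cells and 0 lower by edgeR (at an unadjusted p under 0.05, 3 were higher and 1 was lower). Of all 773 tested miRNAs 8.15% were called higher, and at an unadjusted p under 0.05 14.1% were higher and 12.8% lower. Its median log2 fold change was 0.72, against −0.0042 over all tested miRNAs. miR-375-3p, the main miRNA of islet cells, stood at 92.4 ± 3.73 CPM in CAG cells and 134 ± 13.99 CPM in PGK cells (SD, n = 2 each), with a log2 fold change of −0.53 (SE 0.19) and no call. miR-184, another islet miRNA, had 30 and 7 reads in CAG replicates 1 and 2, and 7 and 2 reads in PGK replicates 1 and 2, a log2 fold change of 1.94 (SE 0.61) with no call. miR-204-5p, expressed in kidney, retina and islets, rose by 1.74 (SE 0.30), and miR-200c-3p, an epithelial miRNA, rose by 1.03 (SE 0.21). Other epithelial miRNAs of the miR-200 family, outside the list, went the other way. In log2 CPM (prior count 2), miR-200b-3p stood at 2.43 and 2.16 in CAG replicates 1 and 2. In PGK replicates 1 and 2 it stood at 4.29 and 3.94, and miR-200a-3p was also lower in CAG cells. miR-200c-3p was no longer called when PGK replicate 1 (1.01) or PGK replicate 2 (1.01) was left out, and miR-204-5p lost it without PGK replicate 2 (1.42). miR-7-5p and miR-148a-3p, abundant in these cells, did not pass the test (log2 fold changes of 0.41 and 0.07), and without CAG replicate 1 both turned negative (−0.09 and −0.14). Without CAG replicate 2, miR-7-5p (0.79) and miR-184 (1.95) were called higher. miR-802 had 0 reads in every library, and miR-141-3p had at most 1 read in each.

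Among miRNAs outside the cluster, those whose profile over the 4 libraries was most like that of miR-216b-5p were sought. Likeness was measured as the root mean square difference of log2 CPM (prior count 2) after each miRNA was centred on its own mean, among 436 tested miRNAs outside the cluster whose mean reached 10 CPM. The closest was miR-218-5p at 0.28, followed by miR-548ay-3p at 0.28, miR-181a-2-3p at 0.30, miR-3613-5p at 0.31 and miR-1269a at 0.31. The median over the 436 was 0.97. miR-216b-5p was chosen with its higher CAG values known, so a search by likeness to it returns miRNAs that are high in CAG cells. Nothing is read from the shared pattern or from the distance to the median. miR-217-5p, from the same intron, had a difference of 0.49 from miR-216b-5p and stood 29th of all 772 other tested miRNAs. Its gap came from the PGK libraries, where the order of the replicates was opposite, and its 12 and 7 reads there leave wide counting intervals of 0.776 to 2.62 CPM and 0.392 to 2.01 CPM.

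**Figure D4:**
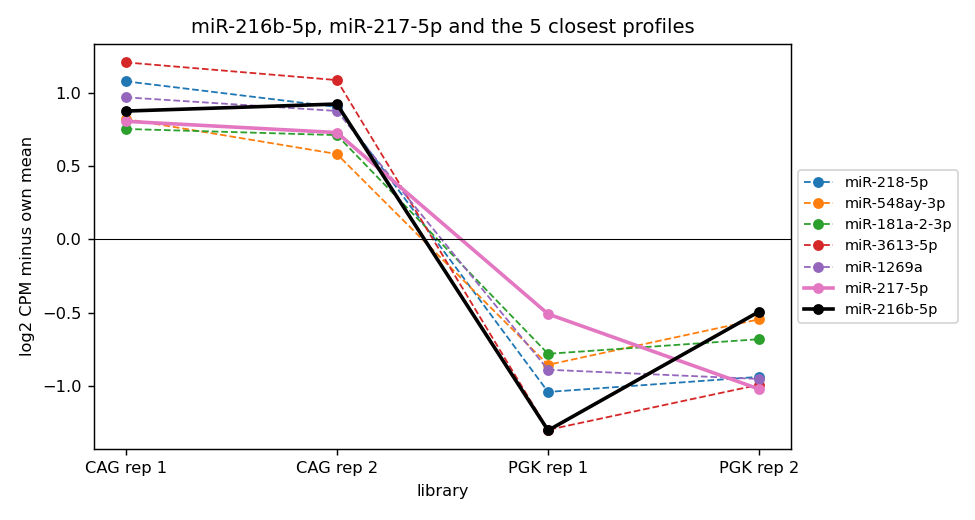
Log2 CPM of each miRNA minus its own mean over the 4 libraries (vertical axis) by library (horizontal axis; lines only join the points of 1 miRNA) for miR-216b-5p, miR-217-5p and the 5 miRNAs outside the cluster closest to miR-216b-5p. All 7 lie above 0 in the CAG and below 0 in the PGK libraries, which for the 5 follows from their choice by likeness to miR-216b-5p. miR-216b-5p and miR-217-5p order the PGK replicates oppositely.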

How the data were processed

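The authors deposited whole-number read counts for 2656 mature miRNAs and 2094 seed families, 1 column per library. Total RNA came from a Trizol extraction of scraped cells at 70% confluence and went into NEBNext Small RNA libraries, per the labels' protocols. Adapter ligation and PCR in this kit affect the counts of each miRNA. The sources used here do not name the trimming, aligner, counting rule, annotation or build. Table totals differed by at most 19 reads per library. The counts of the CAG pair differed with a chi-square of 125 per degree of freedom and those of the PGK pair with 66.1, so neither pair is a repeated deposit of 1 library.

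The whole table was fitted with edgeR 4.0.16 (quasi-likelihood, newer method, robust; R 4.3.3) with TMM factors of 0.935 to 1.08, filterByExpr by group (at least 10 counts, 15 in total) and group as the only term. P-values were two-sided with Benjamini-Hochberg adjustment and a threshold of 0.05. SEs were derived from the log2 fold change and the F statistic. The fit was tested on simulated data. Shares and count ratios have exact (Clopper-Pearson) intervals, and levels have exact Poisson intervals. Ratios use effective library sizes. Tried as alternatives were scaling by RLE, upper quartile or library size, other filters, DESeq2 1.42.0, limma-voom (limma 3.58.1), the older edgeR method, the replicate block, each library left out, thinning, removal of the 5 most abundant miRNAs and a threshold of 0.01. Ratios without each library, and the pancreas list under the alternatives, were added after seeing the data.

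The members, lists and alternatives were chosen with earlier results of these data known. Named are the members, the other strands of their hairpins, miRNAs with the same seed (the 3 most abundant per seed), the pancreas list and the 5 miRNAs with the closest profile. MIR3682, MIR4431 and MIR4432 were named after their values were seen.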

Additional observations from a re-analysis of the deposited data

How the results depend on the processing

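Both tested members were higher in CAG cells under each of the 14 alternatives that gave a fitted value. The log2 fold change ran from 1.43 to 2.32 for miR-216b-5p, which lost its call in 2 of 14, and from 1.29 to 2.02 for miR-217-5p, which lost it in 6 of 14 (edgeR or DESeq2 adjusted p up to 0.133 and 0.237). Of the members, 2 were called by edgeR and 1 with DESeq2, the replicate block, thinning or a threshold of 0.01. Called higher among all tested miRNAs were 63 of 773 by edgeR, 52 of 773 with DESeq2 and 40 of 773 with the replicate block. With thinning they were 34 of 609, and at a threshold of 0.01 they were 32 of 773 (totals over both directions are given below). The filter of 10 CPM in 2 libraries left no member to test. Of the member seed families, 2 were called in the main fit, where 5.76% of 642 tested families were called higher. With upper-quartile scaling 1 was called and with the replicate block 0, without a share over all families to set beside them. Over all miRNAs 110 were called, against 63 with the replicate block, 64 with thinning and 49 at a threshold of 0.01, and 16 to 162 with a library left out. The replicate numbers do not pair the samples by the labels, and deviations of same-numbered libraries correlated at −0.02 over 773 miRNAs. The 5p share ran from 97.6% to 100% for MIR216B, 96.9% to 98.7% for MIR217 and 5.88% to 16.7% for MIR216A with a library left out. With a library left out, the lone library of its group was assumed to vary like the pair of the other group: like the CAG pair without a PGK library, and like the PGK pair, whose replicates had a lower chi-square per degree of freedom (125 for CAG, 66.1 for PGK), without a CAG library. The causes of lost calls were not tested. Depth limits every member, with 3 to 191 reads in all.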
